A study of Mus musculus with 4 samples.

Results

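The genes described here are 10 immediate early and stress response genes: Fos, Fosb, Jun, Junb, Egr1, Atf3, Ier2, Ier3, Dusp1 and Hspa1a. They were chosen by symbol, and all 10 were found among the 31053 genes of the deposited matrices. Together they hold 298823 UMIs (unique molecular identifiers, each marking 1 captured RNA molecule), or 0.673% of 44388868. The cells were leukocytes sorted for high surface CD45 from the ischemic hemisphere of C57/BL6 mice after tMCAO, the transient occlusion of the middle cerebral artery, which models stroke by blocking a brain artery and reopening it. All mice carried this injury, and tissue was taken 5 or 14 days later, with 2 libraries per day and no uninjured or sham group. The labels give neither age nor sex, and do not say whether a library pools several mice, so p-values measure only the spread between libraries.

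Immediate early genes are transcribed within minutes of a stimulus, without new protein synthesis, and their RNA is short-lived. Fos, Fosb, Jun and Junb encode subunits of AP-1, a dimeric transcription factor, and Atf3 encodes a related factor induced by stress. Egr1 is a zinc finger factor, Ier2 and Ier3 are early response genes, Dusp1 is a phosphatase that switches off stress-activated kinases, and Hspa1a is an inducible heat shock chaperone. The same genes respond to activation in the tissue and to enzymes, warming and sorting during cell preparation. All libraries went through cell preparation, so these sources cannot be told apart by the design.

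Promoters are shown for 5 members whose levels carry the results: Jun, Hspa1a, Dusp1, Fos and Ier3. Each stretch holds the 250 bases before the annotated start (RefSeq, GRCm38.p6), 5′ to 3′ on the gene's strand. Capitals mark matches to any of 7 motifs searched on both strands.
Jun: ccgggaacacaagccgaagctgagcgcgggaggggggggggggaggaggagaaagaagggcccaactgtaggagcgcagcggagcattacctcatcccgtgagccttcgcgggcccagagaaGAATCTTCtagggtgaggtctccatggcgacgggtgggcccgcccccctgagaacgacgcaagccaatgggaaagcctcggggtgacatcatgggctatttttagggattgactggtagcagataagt
Hspa1a: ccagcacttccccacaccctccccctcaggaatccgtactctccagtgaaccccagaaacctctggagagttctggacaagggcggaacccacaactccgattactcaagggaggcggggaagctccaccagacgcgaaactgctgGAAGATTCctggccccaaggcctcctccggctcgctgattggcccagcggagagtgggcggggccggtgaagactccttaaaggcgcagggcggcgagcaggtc
Dusp1: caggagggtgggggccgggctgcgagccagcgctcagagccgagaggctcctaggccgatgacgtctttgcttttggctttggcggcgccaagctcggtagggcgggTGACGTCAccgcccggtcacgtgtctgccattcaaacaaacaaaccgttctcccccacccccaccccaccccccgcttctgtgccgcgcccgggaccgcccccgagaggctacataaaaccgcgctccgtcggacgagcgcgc
Fos: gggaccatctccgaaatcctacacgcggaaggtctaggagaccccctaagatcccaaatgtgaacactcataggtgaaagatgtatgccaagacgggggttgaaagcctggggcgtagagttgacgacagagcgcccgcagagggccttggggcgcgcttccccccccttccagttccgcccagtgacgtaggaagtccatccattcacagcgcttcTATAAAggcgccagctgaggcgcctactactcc
Ier3: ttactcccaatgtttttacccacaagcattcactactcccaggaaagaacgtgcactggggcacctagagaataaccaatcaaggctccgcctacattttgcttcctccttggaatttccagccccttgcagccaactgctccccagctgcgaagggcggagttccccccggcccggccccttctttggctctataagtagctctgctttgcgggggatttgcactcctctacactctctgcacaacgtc
These windows lie at chr4:95052223-95052472 (minus strand), chr17:34972157-34972406 (minus strand), chr17:26508473-26508722 (minus strand), chr12:85473640-85473889 (plus strand) and chr17:35821463-35821712 (plus strand), in the order printed. The capitals in Jun and Hspa1a match the heat shock pair GAANNTTC, which 6.69% of 32851 promoter windows of this length hold. The capitals in Dusp1 match the cAMP response element TGACGTCA, found in 1.55% of promoters, and those in Fos match the TATA box TATAAA, found in 12.4%. The Ier3 window matched none of the 7. The other motifs were the AP-1 site TGANTCA (6.75% of promoters), the heat shock pair TTCNNGAA (7.17%), the CArG box (1.47%) and the EGR site GCGTGGGCG (0.536%), none of which matched in these 5 windows. A match describes letters only and shows no binding.

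Of 10925 barcodes, 10433 cells were used, and 8416 of them fell into 9 classes named by markers, an Ms4a7-led macrophage cluster or a Cst7-led phagocyte cluster. The names rest on marker genes alone and each should be read as "-like". In 10 of these units every library had 20 or more cells, and UMIs were summed per unit and library. Levels are UMIs per 1000000 UMIs of that sum (CPM). Total UMIs were 9288054 to 13610119 per library. On day 5 the barcodes with the fewest UMIs held 500 and 505, against 1180 and 1317 on day 14. The matrix headers also differ by day, so a difference in upstream processing cannot be told apart from the day. Libraries shared 5 to 16 barcodes with each other. Annotated genes overlap 5 members: Junos lies antisense to Jun, Prdx2 overlaps Junb, Ergic1 and smaller genes overlap Dusp1, Gm20481 overlaps Hspa1a and Gm24748 overlaps Atf3. Whether counting used strand is not given in the sources used here, so the values of these 5 are uncertain to that extent. Hspa1a also has a near-identical neighbour, Hspa1b, and reads can be split between the pair.

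Among the 10 units different members led in different cell classes, as the plot of levels by class and library shows. Jun, an AP-1 subunit, was led by microglia, with 2444 and 2937 CPM on day 5 and 1493 and 786 CPM on day 14. In T cells it was 198 and 179 CPM on day 5 and 149.7 and 73.4 CPM on day 14. Egr1 was also led by microglia, with 524 and 527 CPM on day 5 and 598 and 244 CPM on day 14, and in NK cells it was 49.2 and 47.0 CPM on day 5 and 35.5 and 23.9 CPM on day 14. Junb was led by gamma delta T or innate lymphoid cells, at 6870.2 and 7668 CPM on day 5 and 3745 and 4846 CPM on day 14. In the other units Junb lay between 513 and 4019 CPM in any library. This order leaves out unnamed clusters, among them one led by the border-associated macrophage markers Mrc1, Pf4 and Lyve1. It was left unnamed because 53.6% of its cells had a high doublet score. In cells thinned to 1000 UMIs it held 10.8 and 13.3 member UMIs on day 5 and 17.9 and 14.6 on day 14. Microglia held 13.2 and 15.4 on day 5 and 10.6 and 8.43 on day 14. Its day 14 values rest on 15 and 14 cells.

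**Figure D1:**
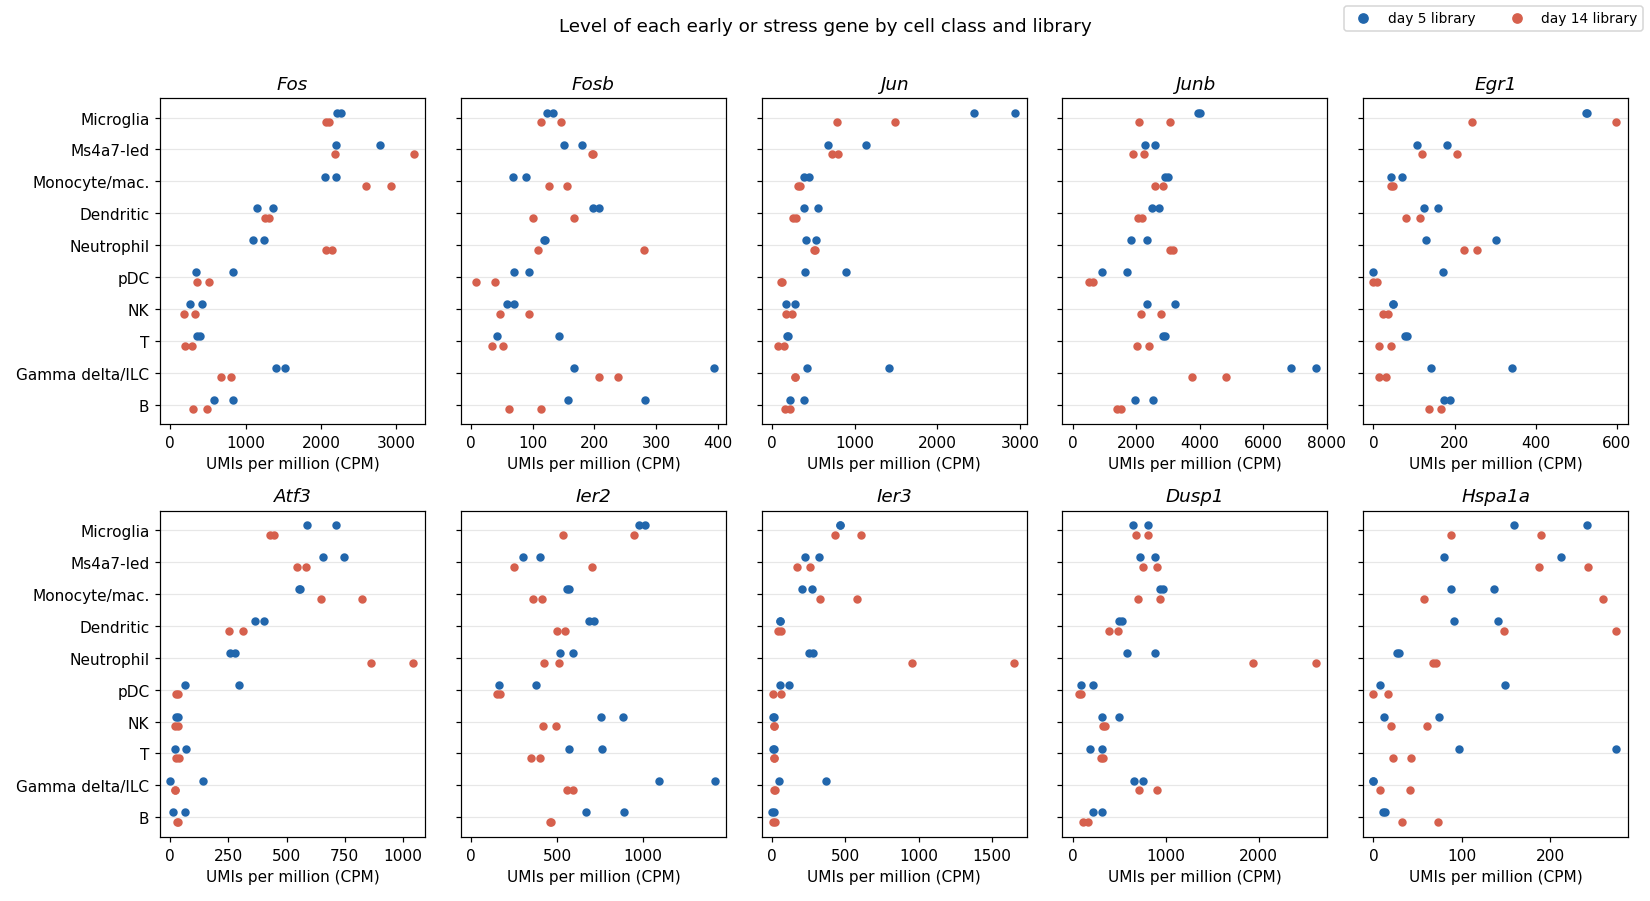
Level of each of the 10 genes (x axes, CPM; scales differ between panels) in 10 cell units (rows), with 1 point per library, blue for day 5 and red for day 14. Microglia lead Jun, neutrophils of day 14 lead Dusp1 and Ier3, and NK, T and B cells sit near 0 for Atf3 and Ier3. Gamma delta T or innate lymphoid cells range from 0 to 143 CPM for Atf3 and from 11.5 to 368 CPM for Ier3.

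Fos, the partner of the Jun proteins, separated myeloid cells from most lymphocytes. The Ms4a7-led macrophages had 2196 and 2786 CPM on day 5 and 2185 and 3231 CPM on day 14, and NK cells had 266 and 423 CPM on day 5 and 329 and 178 CPM on day 14. Mean Fos levels over the 4 libraries were 2599.8 CPM in Ms4a7-led macrophages, 2445 in monocytes or macrophages and 2164 in microglia, and neighbours in this order differed by less than their spread. Atf3 was 554 and 559 CPM on day 5 and 826 and 647 CPM on day 14 in monocytes or macrophages and 34.4 and 23.5 CPM on day 5 and 21.3 and 33.3 CPM on day 14 in NK cells. Ier3 in NK cells was 9.84 and 11.8 CPM on day 5 and 11.3 and 11.5 CPM on day 14. Such low values are at the level that free RNA in droplets could give, and whether lymphocytes transcribe Atf3 or Ier3 was not tested. At an equal depth of 1000 UMIs per cell, an Ier3 UMI was found in 0% and 2.33% on day 5 and 1.38% and 1.09% on day 14 of NK cells, against 29.3% and 27.9% on day 5 and 31.6% and 25.9% on day 14 of microglia. Ier2 did not follow this divide, with 753 and 882 CPM on day 5 and 496 and 421 CPM on day 14 in NK cells and 303 and 399.6 CPM on day 5 and 247 and 705 CPM on day 14 in Ms4a7-led macrophages.

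Between the days, 26 of 90 tested member and class pairs passed an adjusted p of 0.05, 10 higher and 16 lower on day 14. Tests used edgeR's quasi-likelihood test over all genes of a class, and changes are given on the log2 scale (day 14 over day 5) ± the standard error. The other 10 of 100 pairs were too low to test. In neutrophils 5 of 10 members were called and all 5 rose, where 14.0% of all genes were called and 9.81% were called higher. In dendritic cells 7 of 10 were called, 1 higher and 6 lower, against 18.4% of all genes, 9.51% higher and 8.84% lower. In monocytes or macrophages 5 of 10 were called, 4 higher and 1 lower, against 7.51% of all genes, 4.35% higher and 3.17% lower. In gamma delta T or innate lymphoid cells 5 of 7 tested were called, all lower, against 6.84% of all genes and 2.90% lower. The other 4 called members were all lower: 1 of 10 in microglia (5.08% of all genes, 1.32% lower), 1 of 9 in NK cells (6.03%, 1.87% lower), 1 of 8 in plasmacytoid dendritic cells (3.47%, 2.17% lower) and 1 of 9 in T cells (0.953%, 0.210% lower). B cells had 0 of 7 called by edgeR (1.56% of all genes), with 5 at an unadjusted p under 0.05 and 0 called by DESeq2. The Ms4a7-led macrophages had 0 of 10 (0.784%), with 0 at an unadjusted p under 0.05 and 0 called by DESeq2.

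**Figure D2:**
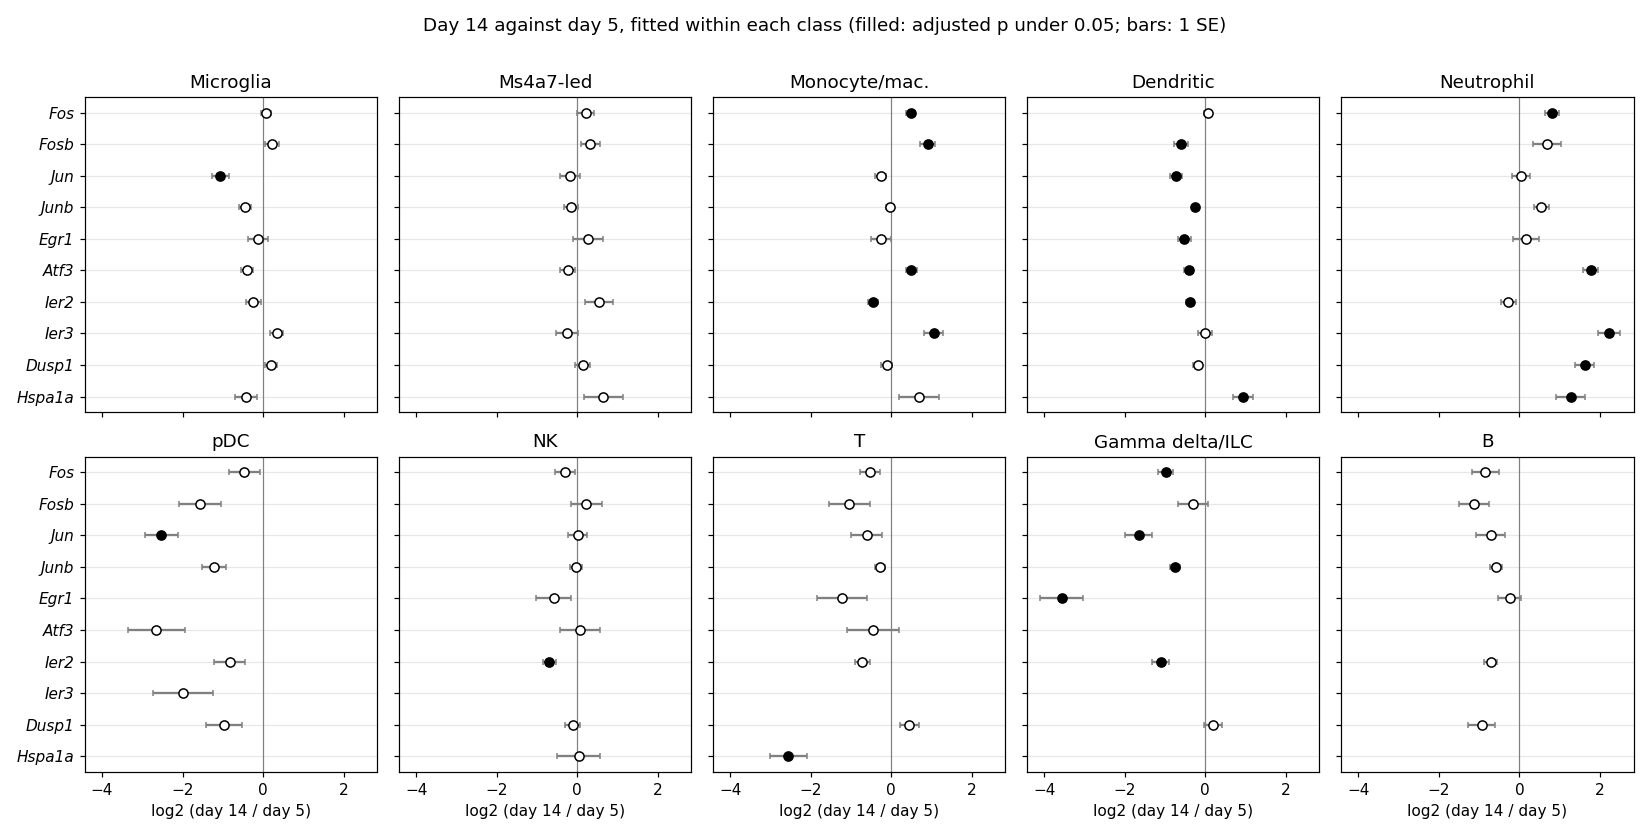
Fitted log2 change of day 14 over day 5 (x axis) for each gene (rows) in 10 cell units (panels); bars are 1 SE from 2 libraries per day, and filled points passed an adjusted p of 0.05. In neutrophils the called genes lie to the right of 0, and in gamma delta T or innate lymphoid cells to the left.

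Neutrophils, short-lived granulocytes, showed the rise that kept its call most often. Ier3 was 282 and 255 CPM on day 5 and 956 and 1652 CPM on day 14. Both day 14 libraries lay above both day 5 libraries, and the change was 2.23 ± 0.27 (adjusted p = 9.66e-04). Dusp1, the phosphatase, was 882 and 581 CPM on day 5 and 1946 and 2614 CPM on day 14, again with no overlap, a change of 1.62 ± 0.23 (adjusted p = 0.00183). Atf3 was 280.0 and 259 CPM on day 5 and 1044 and 863 CPM on day 14, a change of 1.77 ± 0.19 (adjusted p = 5.04e-04). Fos was 1248 and 1097 CPM on day 5 and 2067 and 2146 CPM on day 14, a change of 0.80 ± 0.18 (adjusted p = 0.0165). These 4 kept the call under all 16 alternatives. Hspa1a went from low levels, 28.7 and 26.3 CPM on day 5 and 71.0 and 67.5 CPM on day 14, a change of 1.27 ± 0.36 (adjusted p = 0.0434), and lost the call when any 1 library was left out. Jun in the same cells was 415 and 532 CPM on day 5 and 505 and 519.6 CPM on day 14, and it did not pass, at 0.04 ± 0.23 (adjusted p = 0.939).

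The make-up of the neutrophils differed between the days. A cluster led by granule genes such as Camp and Ngp held 12.9% and 39.7% of the class on day 5 and 1.14% and 0% on day 14. Within the other cluster, led by G0s2, the changes were 2.03 ± 0.25 for Ier3, 1.45 ± 0.20 for Atf3, 1.33 ± 0.18 for Dusp1 and 0.75 ± 0.16 for Fos, and all 4 passed, where 17.9% of genes were called. Hspa1a did not pass there, at 0.90 ± 0.38 (adjusted p = 0.124). Summed microglial markers in this cluster were 16700.2 and 21822 on day 5 and 5145 and 2775 on day 14 (CPM), and their part in the result was not tested. Median UMIs per cell in this cluster were 1108 and 1082 on day 5 and 1593 and 1703 on day 14. At Leiden resolution 2, neutrophils with G0s2 among their leading genes fell into separate clusters. Before mixed cells were left out, the Mmp9-marked part numbered 147 and 115 cells (day 5) against 8 and 3 (day 14). The Il1f9-marked part numbered 41 and 46 cells (day 5) against 83 and 71 (day 14). The part of this shift in the changes of the G0s2-led cluster was not tested.

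Other gene lists in neutrophils are set against 9.81% of all genes called higher. Of the NF-kappa B early response genes 10 of 15 tested rose and 0 fell, led by Ccl4 (2.42 ± 0.24) and Ccl3 (2.24 ± 0.27), both chemokines, and Ptgs2 (2.17 ± 0.24), the inducible cyclooxygenase. Of the stress kinase and ATF4 targets 4 of 6 tested rose and 0 fell, with Gadd45b at 2.76 ± 0.26 and Ddit3 at 2.07 ± 0.30. Of 16 other immediate early genes tested, 5 rose and 0 fell, among them Maff (1.80 ± 0.39), Klf4 (1.74 ± 0.31) and Zfp36 (1.21 ± 0.18), which encodes a protein that promotes decay of inflammatory RNAs. Of the other heat shock chaperones 1 of 9 tested rose and 0 fell, Hspa8 at 0.93 ± 0.26, a share near that of all genes. Of the upstream kinases and factors 0 of 6 tested rose and 0 fell. Of the other genes of the dissociation list 7 of 22 tested rose and 1 fell, and this list had a median of 0.60 against -0.02 over all genes tested. In gamma delta T or innate lymphoid cells 0 of 17 tested genes of this list rose and 5 fell, against 2.90% of all genes lower. In microglia 0 of 23 rose and 3 fell, against 1.32% lower. In monocytes or macrophages 4 of 23 rose and 1 fell (4.35% of all genes higher, 3.17% lower). In dendritic cells 7 of 25 rose and 5 fell (9.51% higher, 8.84% lower). Several genes stand in more than 1 list.

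Jun fell in 4 of 10 units and rose in none. In microglia the change was -1.06 ± 0.21 (adjusted p = 0.00522), from the levels given above, and both day 14 libraries lay below both day 5 libraries. In plasmacytoid dendritic cells Jun was 402 and 897 CPM on day 5 and 120.3 and 109 CPM on day 14, a change of -2.53 ± 0.40 (adjusted p = 0.0141). With the replicate number as a block this value was -2.34 (adjusted p = 0.0904). In dendritic cells Jun was 386 and 557 CPM on day 5 and 261 and 294 CPM on day 14, a change of -0.72 ± 0.15 (adjusted p = 0.00474). The microglial result depends on the clustering. At a finer resolution the Jun call was lost, with -0.58 (adjusted p = 0.173), and 4 members were called higher and 0 lower: Fos at 0.55 (adjusted p = 0.0318), Fosb at 0.70 (adjusted p = 0.0402), Dusp1 at 0.68 (adjusted p = 0.0393) and Ier3 at 0.78 (adjusted p = 0.018). At that resolution the class also took in a cluster with Cd5l among its leading genes. Before mixed cells were left out it had 352 and 438 cells on day 5 and 12 and 8 on day 14. The main clustering left such a cluster unnamed. In cells thinned to 1000 UMIs it held 0.38 and 0.60 member UMIs on day 5, against 13.2 and 15.4 in microglia. The part of these cells in the finer result was not tested. Fos in microglia of the main clustering was 2215 and 2266 CPM on day 5 and 2069.7 and 2105 CPM on day 14, and it did not pass.

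Jun was also lower within single clusters. It passed in 6 of 14 clusters tested alone, all lower on day 14, and 2 of these 6 are classes already counted, the plasmacytoid dendritic cells and the gamma delta T or innate lymphoid cells. In the monocyte cluster marked by Ly6c2 it was 577 and 603 CPM on day 5 and 337 and 349 CPM on day 14, a change of -0.72 ± 0.14 (adjusted p = 0.0152), where 2.22% of genes were called. In the Ear2-led monocytes it was 359 and 282 CPM on day 5 and 116 and 94.8 CPM on day 14, a change of -1.52 ± 0.29 (adjusted p = 0.00364), where 1.81% of genes were called. In the Gpr84-led microglia it was 1710.4 and 1722 CPM on day 5 and 1156 and 747 CPM on day 14, a change of -0.71 ± 0.16 (adjusted p = 0.0226), where 4.19% of genes were called. The P2ry12-led microglia held 64.7% and 67.7% of the class on day 5 and 30.6% and 14.8% on day 14. The part of this shift in the Jun change of the whole microglia class was not tested. Jun in the P2ry12-led cluster was 3339 and 4353 CPM on day 5 and 3223 and 1289 CPM on day 14, with no overlap between the days. It was not tested for a day effect there because day 14 replicate 2 had 8 cells. Over the summed cells of each library 3 of 10 members were called, all lower, against 22.1% of genes and 10.9% lower. The other called members, Atf3 and Egr1, lost the call without 3 and 2 of the libraries in turn. Jun changed by -1.52 ± 0.24 (adjusted p = 0.00592) and kept its call under all 16 alternatives. In such sums fewer cells of a class and less RNA per cell cannot be told apart.

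Gamma delta T or innate lymphoid cells, rapid producers of cytokines at tissue barriers, had 5 of 7 tested members lower on day 14 and none higher. Junb, at the levels given above, changed by -0.75 ± 0.12 (adjusted p = 3.88e-04). Jun was 428 and 1418 CPM on day 5 and 285 and 283 CPM on day 14, a change of -1.66 ± 0.33 (adjusted p = 0.00249). Fos was 1403 and 1523 CPM on day 5 and 672 and 800.1 CPM on day 14, a change of -0.99 ± 0.19 (adjusted p = 0.00145). Ier2 was 1094 and 1418 CPM on day 5 and 555 and 594 CPM on day 14, a change of -1.11 ± 0.20 (adjusted p = 9.98e-04). Egr1 was 143 and 341 CPM on day 5 and 13.4 and 32.0 CPM on day 14, a change of -3.57 ± 0.53 (adjusted p = 1.37e-04). Dusp1 did not pass, at 761 and 657 CPM on day 5 and 711 and 909.8 CPM on day 14. These day 5 sums rest on 21 and 22 cells, against 259 and 102 on day 14. Without day 5 replicate 2, Jun was -0.41 (adjusted p = 0.726). Ier2 and Egr1 each lost the call without day 5 replicate 2 and without either day 14 library, with Egr1 reaching an adjusted p of 0.821, and Fos lost it without day 14 replicate 1. With crossed replicate numbers as a block edgeR called 0 of the 7, with 5 at an unadjusted p under 0.05. The class fell under the 20-cell minimum when the mitochondrial limit was 5%, when more gene lists were left out of the clustering and after thinning to 1000 UMIs per cell, so it has no test there.

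In dendritic cells, 6 members were lower and Hspa1a was higher on day 14. Junb was 2505 and 2732 CPM on day 5 and 2192 and 2073 CPM on day 14, a change of -0.26 ± 0.07 (adjusted p = 0.0237), and Ier2 was 688 and 713 CPM on day 5 and 543 and 501 CPM on day 14, a change of -0.39 ± 0.09 (adjusted p = 0.00733). Egr1, Fosb and Atf3 changed by -0.53 ± 0.16, -0.59 ± 0.17 and -0.42 ± 0.11. Hspa1a was 91.3 and 141 CPM on day 5 and 147 and 275 CPM on day 14, a change of 0.94 ± 0.25 (adjusted p = 0.0181). Hspa1b, a near-identical copy whose reads can be split with it and named here for that reason, changed by 2.24 ± 0.33. Its level lay under 50 CPM on both days, below the limit set for naming other list genes. The make-up of the class moved with these values, since an Epcam-led cluster held 71.9% and 62.9% of the class on day 5 and 1.26% and 1.15% on day 14, and its part in them was not tested. Within the Cd209a-led cluster edgeR called 0 members (2.04% of genes), with 2 at an unadjusted p under 0.05, and within the Xcr1-led cluster it also called 0 (3.19%), with 2. Within the Ccr7-led cluster (3.03% of genes) only Jun passed, at -1.45 ± 0.27 (adjusted p = 0.0148). Without day 5 replicate 2, Atf3, Egr1, Ier2 and Junb lost the call. Without day 14 replicate 2, edgeR called 0 of the 10 members in the whole class, with 5 at an unadjusted p under 0.05.

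Monocytes or macrophages had higher Fos, Fosb, Atf3 and Ier3 and lower Ier2 on day 14. Fos was 2204 and 2049.7 CPM on day 5 and 2596 and 2931 CPM on day 14, a change of 0.48 ± 0.11 (adjusted p = 0.0225). Ier3 was 273 and 205 CPM on day 5 and 330.1 and 581 CPM on day 14, a change of 1.05 ± 0.24 (adjusted p = 0.0215). Fosb changed by 0.91 ± 0.19, Atf3 by 0.50 ± 0.13 and Ier2 by -0.45 ± 0.12. The Ear2-led cluster held 62.5% and 69.9% of the class on day 5 and 10.4% and 3.97% on day 14, and its part in the result was not tested. Within neither monocyte cluster did any of these 5 genes pass. Leaving out either day 5 library, edgeR called 0 members, with 5 at an unadjusted p under 0.05 without replicate 1 and 6 without replicate 2. In the same class 1 passed when more gene lists were left out of the clustering. Hspa1a rose within the Ear2-led cluster, 84.9 and 46.7 CPM on day 5 and 116 and 521 CPM on day 14, by 2.24 ± 0.45 (adjusted p = 0.00655). The day 14 values rest on 31 and 24 cells, and the higher one came from replicate 2. This fit was not repeated without that library.

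Among the other lymphocytes, 1 member passed in each of NK and T cells. In NK cells Ier2 was 753 and 882 CPM on day 5 and 496 and 421 CPM on day 14, a change of -0.70 ± 0.16 (adjusted p = 0.0057). Without day 5 replicate 2 it was -0.58 (adjusted p = 0.193), without day 14 replicate 2 -0.53 (adjusted p = 0.0575), and thinned to 1000 UMIs per cell -0.50 (adjusted p = 0.196). In T cells Hspa1a was 274 and 96.6 CPM on day 5 and 22.0 and 42.4 CPM on day 14, a change of -2.56 ± 0.46 (adjusted p = 0.00469), and the higher day 5 value came from replicate 1. Without that library it was -1.44 (adjusted p = 0.399). The day 5 T cell sums rest on 38 and 44 cells. Other lists in NK cells held genes called in both directions, where 96 of 5127 genes were called lower (1.87%) and 213 higher. Of the NF-kappa B early response genes 1 of 12 tested rose and 2 fell, with the chemokines Ccl3 at -1.97 ± 0.19 and Ccl4 at -1.68 ± 0.15. Of the other immediate early genes 1 of 16 tested rose and 1 fell, Gem at 1.04 ± 0.26 and Klf2, a factor linked to quiescence, at -1.68 ± 0.22. Of the other heat shock chaperones 1 of 12 tested rose and 0 fell, Hspa8 at 0.54 ± 0.15.

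Differences of the day effect between classes were tested as class by day interactions with the library as a block. Microglia and monocytes or macrophages differed for 3 of 10 members, where 2.66% of all genes differed. The difference was -0.89 ± 0.22 (adjusted p = 0.00513) for Atf3 and -0.86 ± 0.23 (adjusted p = 0.0116) for Jun. Dendritic cells differed from monocytes or macrophages for 4 of 10 (8.08% of all genes), with Fosb at -1.53 ± 0.21 (adjusted p = 7.45e-06). NK cells differed from monocytes or macrophages for 0 of 10 (1.89%), with 1 at an unadjusted p under 0.05. NK and T cells differed for Hspa1a alone (0.914%), by 2.41 ± 0.52 (adjusted p = 0.0113). Neutrophils against monocytes or macrophages, a pair added after the levels were seen, differed for 4 of 10 (5.04%), with Dusp1 at 1.80 ± 0.19 (adjusted p = 3.07e-06). Leaving out day 5 replicate 2 ended all 3 differences of microglia, and those for Fos in dendritic cells, Hspa1a in NK against T cells and Junb in neutrophils were also lost without that library. The same 3 single differences, and those for Jun and Hspa1a in microglia, were lost without day 14 replicate 2. Without day 5 replicate 1, those for Atf3 and Jun in microglia, Hspa1a in NK against T cells and Junb in neutrophils were lost.

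With each of the 10 units given equal weight, the summed level of the members was 6736 and 7605 CPM on day 5 and 6086 and 6139 CPM on day 14. The difference was -1058 CPM. An exact permutation test, two-sided, gave p = 0.333, and 2 libraries against 2 cannot give less. Ier2 was 695 ± 51.4 CPM (SD, n = 2) on day 5 and 462 ± 8.90 on day 14, and Ier3 went the other way, 162 ± 14.4 and 263 ± 65.9 CPM.

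Single cells often held several members at once. After each cell was thinned to 1000 UMIs, 3 or more members were detected in 63.2% and 49.0% on day 5 and 88.6% and 95.7% on day 14 of neutrophils. In gamma delta T or innate lymphoid cells the shares were 84.2% and 85.7% on day 5 and 50.6% and 47.1% on day 14, from 19 and 21 day 5 cells, and in microglia 84.7% and 86.9% on day 5 and 81.6% and 66.7% on day 14. Plasmacytoid dendritic cells were at the low end, with 3.85% and 24.1% on day 5 and 7.69% and 11.5% on day 14. Thinning left out 74 and 68 neutrophils on day 5 and 0 on day 14. Members met in the same cells slightly more often than the product of their shares. The ratio was above 1 in 638 of 825 combinations of pair, class and library, with a median of 1.08. Fosb and Egr1 had the highest median, 1.56, over 6 such combinations. The combinations share cells and genes, and several classes join unlike clusters. Ratios of other gene pairs were not computed, so whether these values are particular to the members was not tested.

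**Figure D3:**
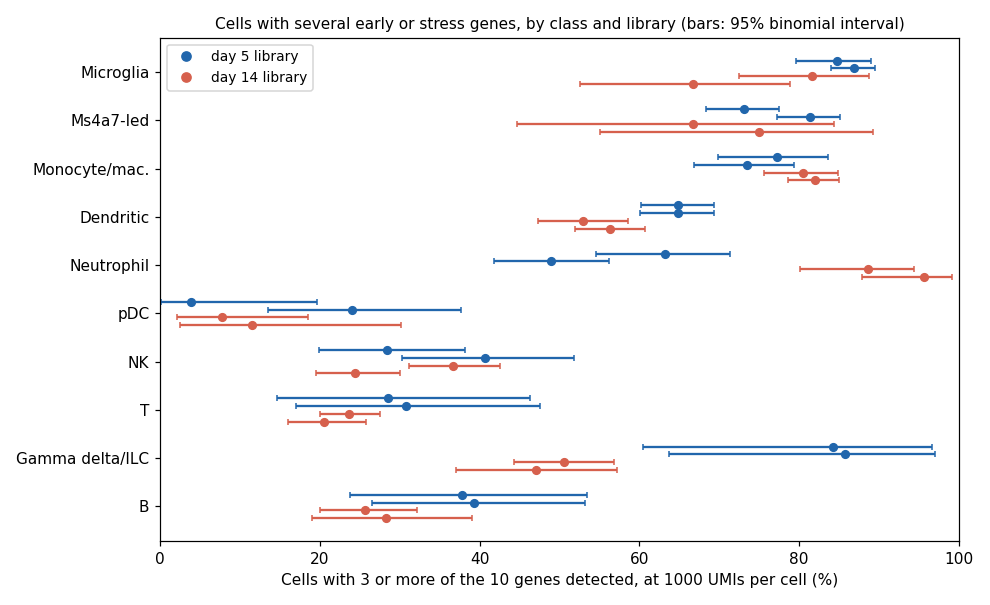
Share of cells (x axis, percent) with 3 or more of the 10 genes detected at 1000 UMIs per cell, in 10 cell units (rows), with 1 point per library and 95% exact binomial intervals, which cover counting error only. The 2 day 14 libraries of neutrophils lie above both day 5 libraries, and in gamma delta T or innate lymphoid cells they lie below.

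A separate set of cells had almost none of this RNA. Over all cells used, 1397 (13.4%) had under 0.3% of their UMIs from Malat1, a long noncoding RNA retained in the nucleus. They held 775 CPM of the members, against 7345 in the other 9036. No member UMI was found in 49.5% of them, against 0.907%. Neat1, another nuclear RNA, was 14.4 against 239.9 CPM, and median UMIs were 2154 against 3663. Mitochondrial shares were alike in the median, 1.98% and 2.02%. Only 54 and 89 cells on the respective sides lay near the limit, between 0.2% and 0.4%.

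Low-Malat1 cells made up 22.1% and 18.8% of the day 5 libraries and 5.54% and 3.89% of the day 14 libraries. They gathered in an unnamed cluster with Ttr and Cd5l among its leading genes, where 933 of 1006 cells were of this kind, in the Cst7-led phagocytes, where 158 of 168 were, and in an unnamed cluster, where 60.1% were. Fos in the Cd5l cluster was 81.1 and 173 CPM on day 5 and 168 and 471 CPM on day 14, and Junb was 152 and 238 CPM on day 5 and 469.6 and 179.6 CPM on day 14. In the 10 units tested they were at most 2.23% of cells. What sets these cells apart was not tested.

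**Figure D4:**
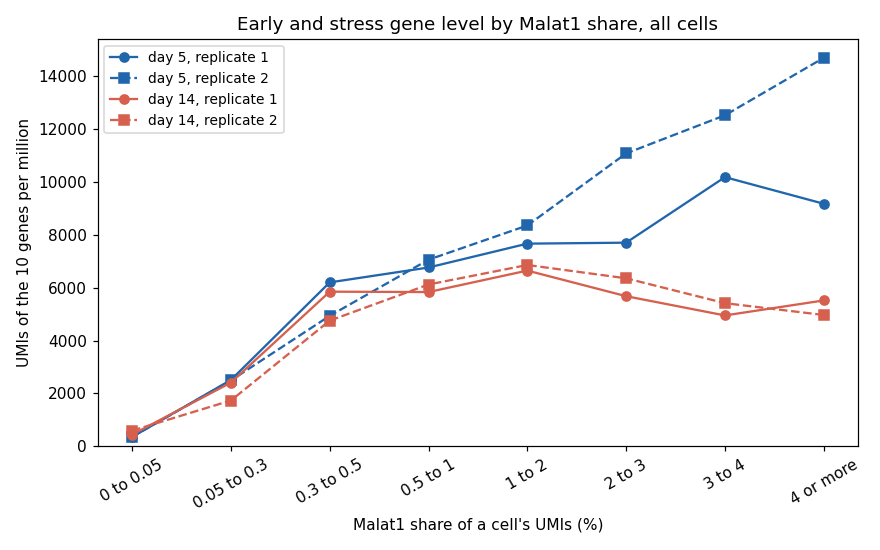
Summed level of the 10 genes (y axis, CPM) in cells grouped by the Malat1 share of their UMIs (x axis, percent), with 1 line per library. All 4 libraries lie between 350.2 and 589 CPM below a Malat1 share of 0.05% and at 4753 CPM or more from 0.3% on, where the thinnest group holds 16 cells.

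Outside the list, the genes whose pattern over the 40 class and library sums was most like the members' mean were Wsb1 (Pearson r 0.838), Plin2 (0.807), Cux1 (0.771), Rgs2 (0.765) and Mt1 (0.765), of 2672 candidates at a mean of 50 CPM or more. The sums share libraries and classes, so these values are descriptions. With every class centred on its own mean, Rgs2 alone of the 5 was again among the 5 most alike.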

How the data were processed

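Single-cell RNA was profiled in 4 libraries, 2 per day, grouped by the labels. The authors deposited raw UMI counts per gene and barcode, and the submitters' processing notes name Cell Ranger 3.0.1, Seurat 2.3.4 and build GRCm38 (mm10). The 10 members and the gene lists were chosen with earlier results of these data known.

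Barcodes with under 200 genes (3) or over 10% mitochondrial UMIs (81) were left out. Log-normalized counts were clustered (scanpy 1.11.5, igraph 0.11.9; 2000 variable genes, 30 components, 20 neighbours, Leiden resolution 1) with the members, other immediate early genes and other heat shock genes left out of the variable genes. A first clustering had left out 4 more early and stress lists. It was replaced after microglia were seen to fall under the cell minimum in it. The narrower exclusion is also the one worded in the analysis plan, which was noticed only then. The microglia results therefore exist because of this choice, and 5 members instead of 1 are called in monocytes or macrophages. The values of the first clustering are given as an alternative. Scrublet called 11 of 10925 barcodes (0.101%), which is too few to have worked, so 402 cells with genes of 2 lineages were also left out, a rule taken from earlier work on these data. Clusters took the class whose markers scored highest. The numeric limits for a name, including a score gap of 0.25, the rule that C1q genes alone name no cluster, the Ms4a7-led and Cst7-led units and the 0.3% Malat1 limit were set after the clusters were seen.

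UMIs were summed per class and library where each library had 20 or more cells. Days were compared with edgeR 4.0.16 (quasi-likelihood, TMM, filterByExpr, Benjamini-Hochberg over all genes of a class, two-sided) in R 4.3.3. DESeq2 1.42.0, other scalings and filters, left-out libraries, a replicate block, other clusterings and thinning were alternatives, and single clusters, crossed numbers, low-Malat1 cells left out, the wider exclusion and the neutrophil pair were added after the data were seen. Shares carry exact (Clopper-Pearson) binomial intervals at 95%. Members were named in every class; other list genes were the called ones with the largest change, up to 3 per direction, list and class, at 50 CPM or more. The fit was tested on simulated data.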

Additional observations from a re-analysis of the deposited data

Results flagged for a closer look

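These results were picked out because the change between days differed between 2 classes by an interaction test (log2 difference of day effects, edgeR, adjusted p under 0.05). Microglia minus monocytes or macrophages gave -0.89 for Atf3, -0.86 for Jun and -0.86 for Hspa1a. Dendritic cells minus monocytes or macrophages gave -1.53 for Fosb, -1.07 for Ier3, -0.90 for Atf3 and -0.40 for Fos. NK cells minus T cells gave 2.41 for Hspa1a. Neutrophils minus monocytes or macrophages gave 1.80 for Dusp1, 1.32 for Atf3, 1.24 for Ier3 and 0.62 for Junb.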

How the results depend on the processing

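Counts of called members by class were 0 in B cells, 7 in dendritic cells, 5 in gamma delta T or innate lymphoid cells, 1 in microglia, 5 in monocytes or macrophages, 0 in Ms4a7-led macrophages, 5 in neutrophils, 1 in NK cells, 1 in plasmacytoid dendritic cells, 1 in T cells and 3 in all cells summed. With DESeq2, the count became 2 in dendritic cells, 3 in gamma delta T or innate lymphoid cells, 1 in monocytes or macrophages and 0 in T cells. With RLE normalization, the count became 2 in plasmacytoid dendritic cells. With no filter on low counts, the count became 1 in B cells, 3 in microglia and 6 in plasmacytoid dendritic cells. With the early genes kept in the clustering, the count became 0 in T cells. At Leiden resolution 2, the count became 4 in microglia, 2 in monocytes or macrophages and 2 in plasmacytoid dendritic cells. With only Scrublet calls left out, the count became 3 in monocytes or macrophages and 3 in plasmacytoid dendritic cells. With a mitochondrial limit of 5%, the count became 4 in dendritic cells, 2 in microglia and 1 in monocytes or macrophages. Thinned to 1000 UMIs per cell, the count became 1 in B cells, 4 in dendritic cells, 2 in microglia, 1 in monocytes or macrophages, 0 in NK cells, 0 in plasmacytoid dendritic cells and 0 in T cells. With more early and stress lists left out of the clustering, the count became 1 in monocytes or macrophages and 2 in plasmacytoid dendritic cells. At Leiden resolution 2 the 4 in microglia were all higher, against 1 lower in the main clustering. The class then also held a cluster with Cd5l among its leading genes, so the cells compared were not the same. Leaving out 1 library in turn gave 0 to 3 in B cells, 0 to 7 in dendritic cells, 2 to 6 in gamma delta T or innate lymphoid cells, 1 to 4 in microglia, 0 to 5 in monocytes or macrophages, 0 to 1 in Ms4a7-led macrophages, 0 to 2 in NK cells, 1 to 9 in plasmacytoid dendritic cells, 0 to 1 in T cells and 1 to 3 in all cells summed. Of 29 called changes, the summed cells included, 5 kept the call under every alternative run, and Ier2 in monocytes or macrophages changed sign at Leiden resolution 2, to 0.0064; the cause of these changes was not tested. For the differences between classes, leaving out 1 library gave 0 to 5 of the members for microglia against Monocyte or macrophage, 0 to 1 of the members for NK cell against Monocyte or macrophage and 0 to 1 of the members for NK cell against T cell. The equal-weight share of cells with 3 or more members differed by -5.00 percentage points, by -2.44 at 500 UMIs and by 1.38 without thinning.

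The labels do not say whether equal replicate numbers mark paired libraries. The correlation of deviations between same-numbered libraries ran from -0.191 to 0.0309 over the units. With 2 libraries per day this correlation cannot settle the question. With the number as a block the count became 0 in plasmacytoid dendritic cells, and stayed within 1.5 times the main count in the other units. With crossed numbers, added since B cells and the summed cells correlated below -0.1, the count became 0 in gamma delta T or innate lymphoid cells, 2 in microglia, 3 in plasmacytoid dendritic cells and 2 in T cells.

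The main clustering replaced a first one after microglia were seen to be untestable in it. Depth limits the smallest classes: gamma delta T or innate lymphoid cells could not be tested with a mitochondrial limit of 5%, with more lists left out or when thinned, the Ms4a7-led macrophages at Leiden resolution 2, and microglia had 19 cells in day 14 replicate 2, under the minimum, when more lists were left out of the clustering. Phagocyte classes changed their cells between clusterings, so values for microglia and monocytes or macrophages depend on the clustering. The neutrophil class joined clusters of differing day shares in every clustering, so its kept calls do not test a change of its make-up. Data were simulated for NK cells and monocytes or macrophages with the same fixed spread between libraries for every gene (dispersion 0.02). A log2 change of 1 was recovered for 31.6% of changed genes among 4746 in NK cells and for 48.9% among 6586 in monocytes or macrophages. Changes of that size that missed the threshold are therefore not shown to be absent. The spread was not estimated from these libraries and smaller classes were not simulated, so these shares are not the recovery of the real tests.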
